A study of Mus musculus with 6 samples.

Results

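The 10 genes described here encode the spindle assembly checkpoint and the kinase module that works beside it at the centromere. The checkpoint genes are Mad1l1, Mad2l1, Bub1, Bub1b, Bub3 and Ttk, and the genes of the Aurora passenger complex are Aurkb, Aurkc, Incenp and Cdca8. They were taken by name, as every probe set that the platform annotation assigns to 1 of these genes and to no other. All 10 were found, on 13 of the 35556 probe sets of the array and among 19938 named genes. Aurkc had 4 probe sets and each of the other genes had 1, and 0 further probe sets named a member together with another gene.

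RNA was measured in fully-grown oocytes of mice on 6 arrays, 3 of Marf1-mutant oocytes and 3 of wild-type (Marf1+/+) oocytes. The mutants carry a Marf1 allele induced by the mutagen ENU on both copies, and both genotypes have a mixed background of C57BL/6J and C3HeB/FeJ. Females of both genotypes received 5 IU of equine chorionic gonadotropin at 21 days of age, and oocytes were collected 46 hours later, at 23 days, and stripped of cumulus cells. Oocytes at this germinal-vesicle stage are arrested in meiotic prophase and have largely ceased to transcribe, so each value reads mainly a store of maternal RNA. Transcription itself was not measured in these samples. Neither the number of oocytes nor that of animals behind a sample is stated, and p-values therefore cover the spread between 3 samples a genotype, part of which may be technical.

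The spindle checkpoint delays anaphase until every kinetochore is attached to microtubules. Ttk, also called Mps1, starts the signal, Mad1l1 turns Mad2l1 into the form that binds Cdc20, and Bub1b, Bub3 and Mad2l1 hold Cdc20 away from the anaphase-promoting complex. In the passenger complex Incenp is the scaffold and kinase activator, Cdca8 (borealin) and Birc5 (survivin) place the complex at the centromere, and Aurkb or Aurkc is the kinase that destabilises wrong attachments. Aurkc is the form of germ cells and is abundant in mouse oocytes, where this machinery acts once meiosis resumes. Marf1 is needed for oocytes to resume meiosis, and the comparison asks how the transcripts differ without its normal product.

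The starts of these genes were searched for the letters of elements known from cell-cycle promoters. Of these starts 4 are printed because they contrast the gene with the only call, 2 kinases of the checkpoint and the germ-cell kinase. Each stretch runs from 120 bases before an annotated transcript start to 30 bases into the transcript, 5' to 3' on the gene's strand, from RefSeq in build GRCm38.p6. The start used is the gene start of the RefSeq gene table for Cdca8 and Bub1, and another one for Ttk and Aurkc. Capitals mark the cell-cycle genes homology region (CHR, searched as TTTGAA and TTCGAA) and the CCAAT box (CCAAT), each on both strands. The stretches are chr4:124936888-124937037 (minus strand) for Cdca8, chr2:127831830-127831979 (minus strand) for Bub1, chr9:83834569-83834718 (plus strand) for Ttk and chr7:6995265-6995414 (plus strand) for Aurkc.
Cdca8: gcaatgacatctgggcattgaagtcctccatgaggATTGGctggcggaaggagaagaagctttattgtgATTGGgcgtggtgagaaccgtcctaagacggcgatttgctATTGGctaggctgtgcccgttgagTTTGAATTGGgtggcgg
Bub1: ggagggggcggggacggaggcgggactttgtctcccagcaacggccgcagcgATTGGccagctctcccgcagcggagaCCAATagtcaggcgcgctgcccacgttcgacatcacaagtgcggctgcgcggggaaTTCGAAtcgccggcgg
Ttk: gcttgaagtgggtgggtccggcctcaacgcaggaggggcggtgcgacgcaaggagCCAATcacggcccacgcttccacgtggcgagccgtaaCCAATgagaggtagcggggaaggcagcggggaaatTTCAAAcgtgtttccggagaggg
Aurkc: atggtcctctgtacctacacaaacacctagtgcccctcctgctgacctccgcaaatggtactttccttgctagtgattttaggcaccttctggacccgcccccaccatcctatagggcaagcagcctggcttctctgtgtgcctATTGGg

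Counted from the first transcribed base, the CHR letters lay at bases 14 to 19 in Cdca8, 15 to 20 in Bub1 and 8 to 13 in Ttk. Cdca8 held 4 CCAAT boxes, all on the opposite strand, and the one at bases 19 to 23 shares 1 base with its CHR letters. The Aurkc stretch held 1 CCAAT box, at bases 25 to 29, and no CHR letters. Of the 8 genes with an entry in the promoter table (300 bases each), 5 had either CHR form, namely Bub1, Bub1b, Bub3, Ttk and Cdca8, against 19.2% of all 32851 promoters. A CCAAT box stood in 6 of the 8, against 37.4% of all promoters. A gene counted if any of its entries held the letters, whereas both shares are of single entries. Mad1l1 and Bub3 had more than 1 entry, and the passenger genes Aurkb and Incenp had none. A match of letters is a description of the sequence and not a site.

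The mutant label was checked on Marf1, which read 5.98, 6.40 and 6.16 in mutant oocytes, against 9.21, 9.16 and 9.31 in wild-type oocytes (log2 expression), a log2 fold change of -3.05 (limma adjusted p = 1.0e-04). Where its probes lie relative to the mutation is not stated. Over the array 7.78% of probe sets passed the threshold (limma, adjusted p under 0.05), 1700 higher and 1065 lower in the mutant, or 2020 and 717 after cyclic loess normalization. Mutant replicate 3 stood apart, with correlations of 0.970 to 0.973 with the other mutant arrays, which correlated with each other at 0.985. All 12 oocyte markers checked, Gdf9, Bmp15 and the zona pellucida genes among them, lay above a dim level of 4.51, and 0 passed the threshold. Few genes this bright passed at all. At a mean level of 10 or above, the range of those named, 2.75% of all genes were called in either direction. The mean signal of 95% of 1190 olfactory and vomeronasal receptor genes lay below this dim level, and the lowest group mean of any of the 10 genes was 6.06, in Mad1l1 of the mutant.

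The 10 genes differed little between the genotypes. Cdca8 fell, 9 did not pass the threshold, and none differed by as much as 1.5-fold (0 of 10). Lower by the test was 1 of 10 genes, where the share of all genes called lower was 4.04%, and higher were 0 of 10, where it was 6.4%. Among the 6503 genes with a mean level of at least 6, the range in which all 10 lie, those shares were 8.93% and 13%. The fold change was negative in 8 of 10 genes, as in 56.5% of all genes and 62.6% of those at level 6 or above. Its median was -0.19 (log2), against -0.04 over all genes and -0.15 over those at level 6 or above. At an unadjusted p under 0.05 in limma 4 genes were lower and 0 higher, against 13.5% and 11% of all genes. At level 6 or above the share lower was 27.2%. The 3 mutant values lay below the 3 wild-type values in 4 genes, Cdca8, Aurkc, Incenp and Mad1l1, and above them in 0, against 17.7% and 12.9% of all genes and 32.5% and 20.8% of those at level 6 or above.

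**Figure D1:**
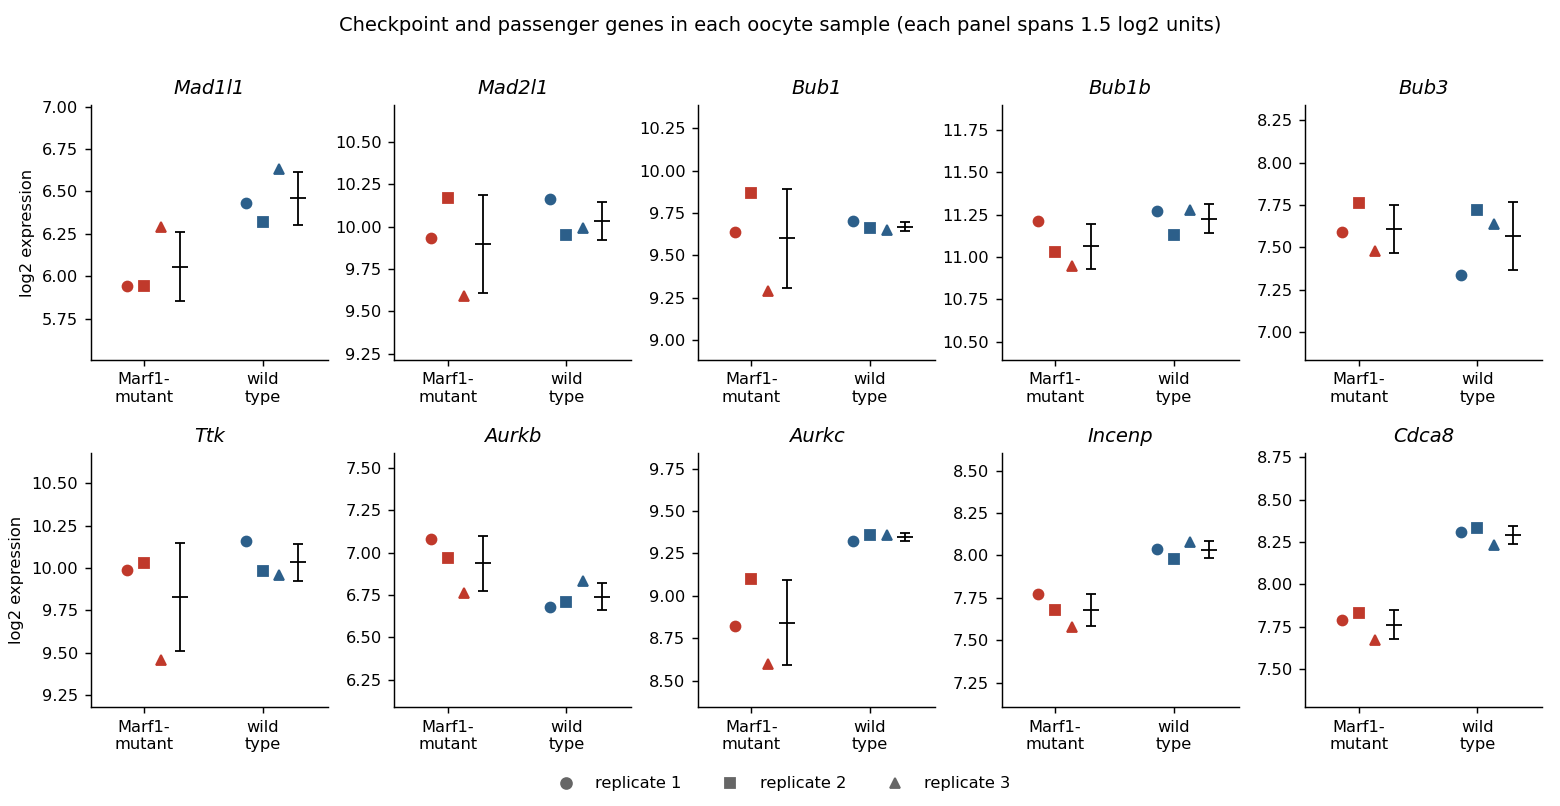
Log2 expression of the 10 genes in each sample, Marf1-mutant (red) left of wild type (blue), with the marker shape giving the replicate and the bar the mean ± SD of 3. Each panel has its own axis of the same length. The genotypes separate in Mad1l1, Aurkc, Incenp and Cdca8, and mutant replicate 3 (red triangle) is the lowest mutant in all genes but Mad1l1.

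Among the passenger genes, Cdca8 (probe set 10516246) read 7.79, 7.83 and 7.67 in mutant oocytes, against 8.31, 8.33 and 8.23 in wild-type oocytes (log2 expression). Every mutant sample lay below every wild-type sample, and the spread within each genotype was small beside the gap. The means were 7.76 ± 0.08 and 8.29 ± 0.05 (SD, n = 3 each), 1.44-fold lower in the mutant. On the log2 scale the difference was -0.53 with an SE of 0.13, and the adjusted p in limma was 0.0499. The call lies at the edge of the threshold and was lost in each of the 6 fits that left out 1 array, with adjusted p between 0.0740 and 0.164 and log2 fold changes between -0.56 and -0.48. It was also lost after cyclic loess normalization (-0.37, adjusted p = 0.107) and after median centring (adjusted p = 0.0949).

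Incenp (probe set 10465861), the scaffold on which the complex is built, read 7.77, 7.68 and 7.58 in mutant oocytes, against 8.04, 7.98 and 8.08 in wild-type oocytes. The genotypes did not overlap, but the difference did not pass the threshold. In log2 it was -0.36 (95% interval -0.66 to -0.05, limma adjusted p = 0.170). Birc5 (probe set 10382998), the remaining subunit of the complex, read 10.76, 11.01 and 10.43 in the mutant, against 10.75, 10.75 and 10.73 in wild type, with mutant samples on both sides of the wild type. Its log2 fold change was -0.01 (95% interval -0.41 to 0.39).

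The kinases of the complex had differences of opposite sign. Aurkc, by its brightest probe set (10549889), read 8.82, 9.10 and 8.60 in mutant oocytes, against 9.32, 9.36 and 9.36 in wild-type oocytes. All 3 mutant samples were lower, and they spread more widely (SD 0.25) than the wild-type samples (SD 0.02). On the log2 scale the difference was -0.51 (SE 0.16, 95% interval -0.88 to -0.13, limma adjusted p = 0.118), which does not pass the threshold. Aurkb (probe set 10377405), a form not restricted to germ cells, read 7.08, 6.97 and 6.76 in mutant oocytes, against 6.68, 6.71 and 6.83 in wild-type oocytes. Mutant replicates 1 and 2 were above all wild-type samples and replicate 3 lay between them. This gave a log2 fold change of 0.20 (95% interval -0.14 to 0.53, limma adjusted p = 0.557).

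The other Aurkc probe sets gave the same direction. They share their listed transcripts with the first, so they are repeat readings of 1 gene and not replicates. Probe set 10512680 read 8.68, 8.79 and 8.45 in the mutant, against 9.01, 8.87 and 8.97 in wild type, a log2 fold change of -0.31 (limma adjusted p = 0.298). Probe set 10559989 read 7.93, 8.24 and 7.90 in the mutant, against 8.48, 8.58 and 8.57 in wild type (-0.52, adjusted p = 0.0817). Probe set 10560004 read 7.90, 8.28 and 7.80 in the mutant, against 8.58, 8.52 and 8.54 in wild type (-0.55, adjusted p = 0.0919). In all 4 the genotypes did not overlap and mutant replicate 2 was the highest mutant sample, and in none did the difference pass the threshold (0 of 4).

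**Figure D2:**
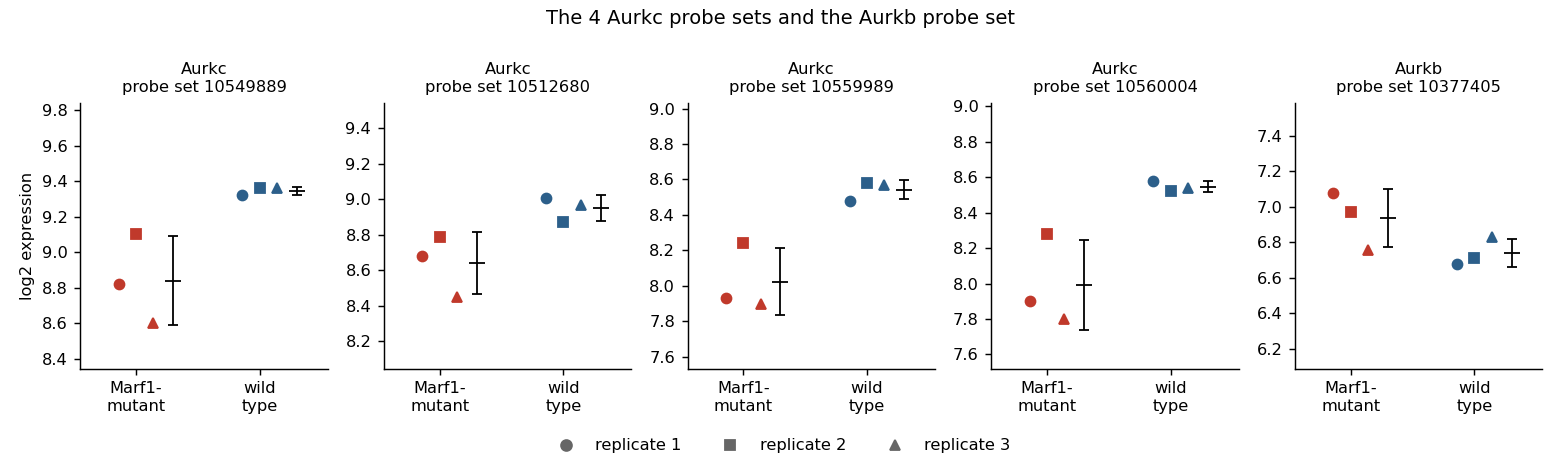
Log2 expression on the 4 Aurkc probe sets and the Aurkb probe set, Marf1-mutant (red) left of wild type (blue), with marker shape for the replicate and the mean ± SD of 3. The 3 mutant samples lie below the 3 wild-type samples on all 4 Aurkc probe sets, whereas on the Aurkb probe set the genotypes overlap.

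Within each array the distance between both kinases was smaller in the mutant. Aurkc minus Aurkb was 1.74, 2.13 and 1.84 in mutant oocytes, against 2.64, 2.65 and 2.53 in wild-type oocytes (log2 difference of 2 probe sets, which does not give the ratio of the RNAs). The genotypes did not overlap, and the difference between them was -0.70, with an exact two-sided permutation p of 0.1, the smallest that 3 against 3 samples allow, and 0.3 after adjustment over the 3 pairs compared. Bub1b minus Bub1 was 1.57, 1.16 and 1.66 in the mutant, against 1.57, 1.47 and 1.63 in wild type, a difference of -0.09 (exact permutation p = 0.9, adjusted 0.9). Mad2l1 minus Mad1l1 was 3.99, 4.23 and 3.30 in the mutant, against 3.73, 3.63 and 3.36 in wild type, a difference of 0.27 (exact permutation p = 0.5, adjusted 0.75). The design could not bring any of these below 0.05.

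None of the checkpoint genes passed the threshold (0 of 6). Ttk (probe set 10587508), the kinase at the top of the signal, read 9.99, 10.03 and 9.46 in mutant oocytes, against 10.16, 9.98 and 9.96 in wild-type oocytes. Mutant replicates 1 and 2 lay among the wild-type samples and replicate 3 well below all of them. The log2 fold change was -0.21 (95% interval -0.64 to 0.23, limma adjusted p = 0.653), and without mutant replicate 3 it was -0.02.

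Mad1l1 (probe set 10535189), which anchors Mad2l1 at unattached kinetochores, read 5.94, 5.94 and 6.29 in the mutant, against 6.43, 6.32 and 6.63 in wild type. The genotypes did not overlap, though the nearest samples almost touched. Their difference was -0.40 in log2 (95% interval -0.78 to -0.03, limma adjusted p = 0.217). Mad2l1 (probe set 10538832), the protein that closes on Cdc20, read 9.93, 10.17 and 9.59 in the mutant, against 10.16, 9.95 and 9.99 in wild type. Mutant replicate 2 lay just above the wild-type samples, and mutant replicates 1 and 3 lay below them. They differed by a log2 fold change of -0.14 (95% interval -0.55 to 0.28, limma adjusted p = 0.782), and 0.017 without mutant replicate 3.

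Bub1 (probe set 10487480), the kinase that marks centromeric histone H2A for shugoshin, read 9.64, 9.87 and 9.29 in mutant oocytes, against 9.70, 9.66 and 9.65 in wild-type oocytes. The mutant samples lay on both sides of a tight wild-type group. The log2 fold change was -0.07 (95% interval -0.47 to 0.33, limma adjusted p = 0.898), and 0.085 without mutant replicate 3. Bub1b (probe set 10474769), or BubR1, the Cdc20-binding part of the inhibitor, read 11.21, 11.03 and 10.95 in the mutant, against 11.27, 11.13 and 11.28 in wild type. Mutant replicates 2 and 3 lay below all wild-type samples. The log2 fold change was -0.16 (95% interval -0.49 to 0.16, limma adjusted p = 0.627). Bub3 (probe set 10558248), which docks both on the kinetochore protein Knl1, read 7.59, 7.76 and 7.48 in the mutant, against 7.34, 7.72 and 7.64 in wild type. The genotypes overlapped, with a log2 fold change of 0.04 (95% interval -0.33 to 0.41, limma adjusted p = 0.935).

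The intervals also bound the genes that did not pass. In the fit to all 6 arrays, no 95% interval of the 10 genes reached a 2-fold difference in either direction (0 of 10). By the brightest probe set of each gene, the widest fall the intervals allow was 1.84-fold, for Aurkc, and the widest rise 1.44-fold, for Aurkb. These intervals are per gene and not adjusted for the number of genes. They do not bound the fits to other sets of arrays. Without mutant replicate 2 the log2 fold change of Aurkc was -0.64 (SE 0.16).

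**Figure D3:**
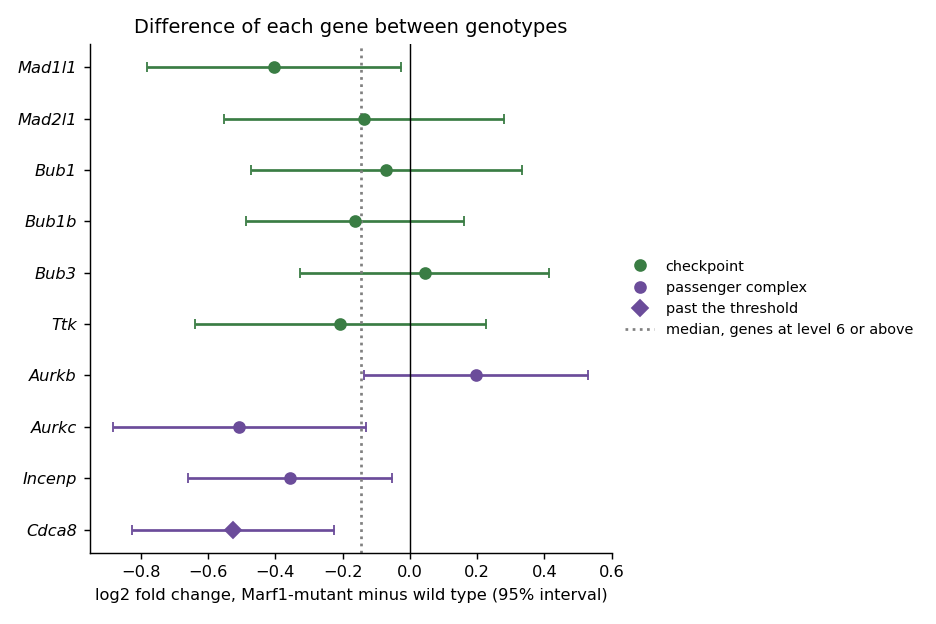
Log2 fold change of each gene, Marf1-mutant minus wild type, with its 95% interval from limma (3 arrays a genotype). Green marks checkpoint genes, purple passenger genes and the diamond Cdca8, the gene past the threshold. The dotted line is the median of all genes with a mean level of at least 6 (-0.15).

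The mutant samples were not alike in these genes. Mutant replicate 3 was the lowest mutant in 9 of 10 genes, all but Mad1l1, as it was in 35% of all genes and 68.1% of those at level 6 or above. It differed from the mean of mutant replicates 1 and 2 by between -0.55 (Ttk) and 0.35 (Mad1l1). Over all genes the median of that difference changed sign with the mean level. It was 0.19 below level 4, 0.145 at 4 to 6, -0.23 at 6 to 8, -0.26 at 8 to 9 and -0.29 at 9 to 10. The mutant SD exceeded the wild-type SD in 9 of 10 genes. Without mutant replicate 3, 6 of 10 fold changes were negative, with a median of -0.07, and 0 genes passed the threshold. In those 5 arrays Cdca8 was at -0.48, Aurkc at -0.39, Incenp at -0.31 and Mad1l1 at -0.52.

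**Figure D4:**
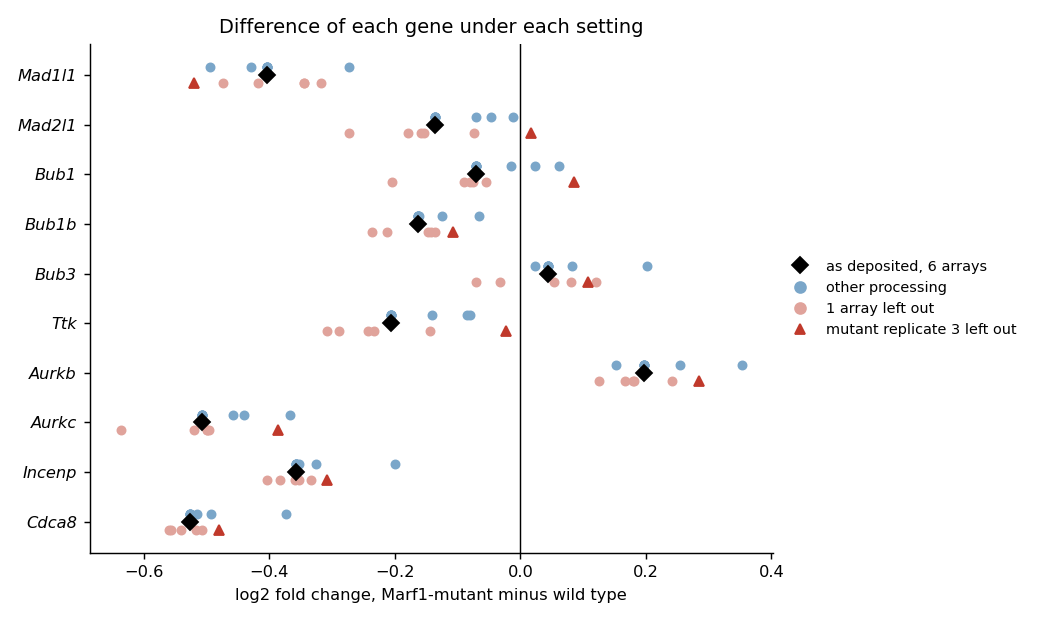
Log2 fold change of each gene, Marf1-mutant minus wild type, as deposited (black diamond), under 8 other processing settings (blue) and with each array left out (pale red, and a red triangle for mutant replicate 3). Mad1l1, Bub1b, Ttk, Aurkc, Incenp and Cdca8 stay below 0 and Aurkb above 0 in all of them, and Mad2l1, Bub1 and Bub3 cross 0 in at least 1.

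Of 13 measured partners of the passenger complex and relatives of its kinases, 1 rose and 1 fell, near the 13% higher and 8.93% lower among all genes at level 6 or above. Rcc2, a protein of centromeres and the midzone, read 8.05, 8.03 and 7.56 in mutant oocytes, against 6.51, 6.38 and 6.61 in wild-type oocytes, with no overlap. Its log2 fold change was 1.38 (SE 0.18, limma adjusted p = 0.00316). Kif23, the kinesin of the central spindle, had means of 9.89 ± 0.14 in the mutant and 10.48 ± 0.04 in wild type (SD, n = 3 each; log2 fold change -0.58, limma adjusted p = 0.0419).

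Of 14 measured checkpoint partners, 1 rose and 1 fell, again near those shares. Trip13, the ATPase that reopens Mad2l1 and so recycles it, had means of 7.38 ± 0.17 in the mutant and 6.31 ± 0.08 in wild type (SD, n = 3 each; log2 fold change 1.06, limma adjusted p = 0.00461). Kntc1, or Rod, part of the complex that brings Mad1l1 and dynein to kinetochores, read 6.46, 6.47 and 6.19 in the mutant, against 7.17, 7.03 and 6.87 in wild type (-0.65, adjusted p = 0.0431). Cdc20, the target of the checkpoint, read 7.82, 7.91 and 7.60 in the mutant, against 8.04, 7.47 and 8.06 in wild type. Its genotypes overlapped, with a log2 fold change of -0.08 (95% interval -0.54 to 0.38).

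Of 29 measured kinetochore and centromere genes, 3 fell, near the 8.93% called lower at level 6 or above, and 0 rose, where 13% were called higher. Knstrn, a spindle and kinetochore partner of astrin, read 8.55, 8.68 and 8.30 in the mutant, against 9.37, 9.39 and 9.48 in wild type (log2 fold change -0.90, limma adjusted p = 0.0106). Ska2, of the complex that couples kinetochores to microtubules, read 7.12, 7.27 and 7.16 in the mutant, against 8.20, 7.94 and 8.01 in wild type (-0.87, adjusted p = 0.00935). Cenpf, a large microtubule-binding protein of the outer kinetochore, changed by -0.87 (adjusted p = 0.0171). The median log2 fold changes of the 3 lists were -0.28, -0.32 and -0.27, against -0.15 over all genes at level 6 or above.

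Rcc2, Trip13 and Ska2 kept the call in all 6 fits that left out 1 array. Kif23 and Kntc1 kept it in 0 of 6 (adjusted p up to 0.147 and 0.159). Knstrn lost it without wild-type replicate 3 (adjusted p = 0.0554), and Cenpf without mutant replicate 2, wild-type replicate 2 or wild-type replicate 3 (up to 0.0694). Kif23 and Kntc1 also lost the call after cyclic loess normalization and after median centring. With mutant replicate 3 left out, the passenger partners and the checkpoint partners had 1 higher and 0 lower each, and the kinetochore list 3 higher and 3 lower.

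**Figure D5:**
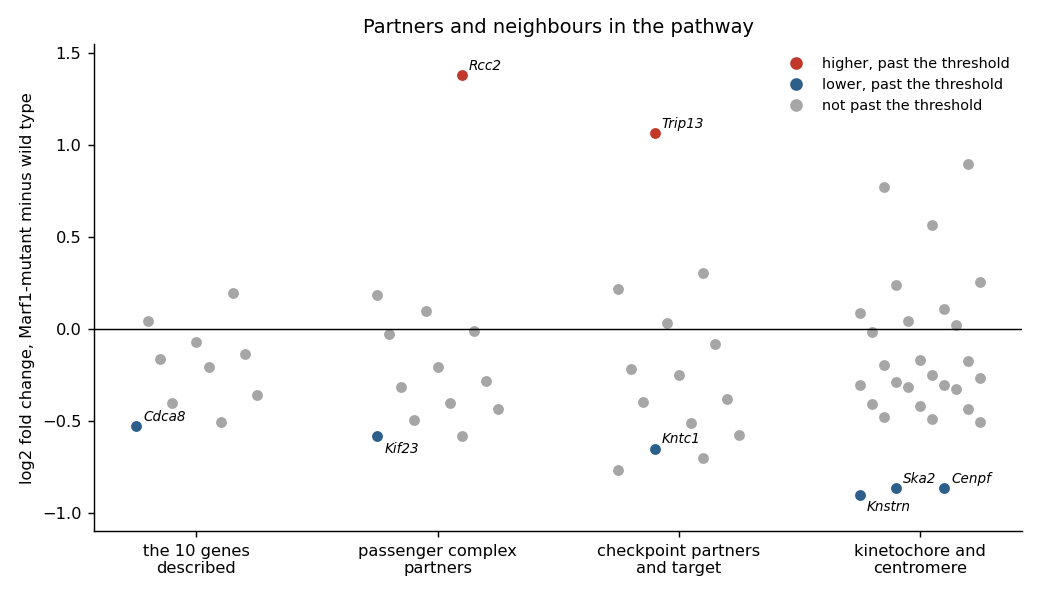
Log2 fold change, Marf1-mutant minus wild type, of the 10 genes and of 13 passenger partners, 14 checkpoint partners and 29 kinetochore genes, 1 point a gene. Red and blue mark genes higher and lower past the threshold, grey the rest; sideways position within a column carries no value. Rcc2 and Trip13 stand above 1, and Knstrn, Ska2 and Cenpf below -0.8.

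Checkpoint and passenger genes are also transcribed in dividing somatic cells. Transcripts of cycling cells and markers of cell types outside the oocyte were therefore read beside them. Of 8 transcripts typical of cycling cells, 2 fell, Mki67 (log2 fold change -1.21) and Top2a (-1.04), and 1 rose, Rrm2 (0.70). None of the 8 lay below the dim level in both genotypes (0 of 8). Pcna was at 10.58 in the mutant and 10.43 in wild type, and Ccna2 at 9.24 and 9.22. Whether their signal came from the oocytes or from other cells was not tested, so they are not read as markers of somatic cells. At level 6 or above, where all 8 lie, 8.93% of all genes were called lower and 13% higher. Of 13 measured cumulus and granulosa markers, 6 lay below the dim level in both genotypes, Amh (4.07 in the mutant, 4.42 in wild type) and Fshr (4.24 in the mutant, 4.04 in wild type) among them. The 2 that passed the threshold were Kitl (1.94) and Nr5a2 (1.46), both higher, where 6.4% of all genes were called higher. Kitl was at 5.66 in the mutant and at 3.72 in wild type, the latter below the dim level. The summed linear signal of the list was 1325 to 1668 in mutant samples, against 638 to 719 in wild-type samples. The brightest of the list was Nr5a2 (10.17 in the mutant, 8.71 in wild type). The fold change was negative in 9 of the 13, and the median level of the list was 4.22 to 4.74 in mutant samples, against 4.31 to 4.58 in wild-type samples. Of 6 measured blood, immune and endothelial markers, 3 lay below the dim level in both genotypes. Of the 6, 1 fell, Pecam1 (-1.07), where 4.04% of all genes were called lower. Summed signal of that list was 171 to 212 in mutant samples, against 242 to 268 in wild-type samples. Pecam1 read 6.29, 6.48 and 5.82 in the mutant, against 7.28, 7.21 and 7.31 in wild type. The fold change was negative in 3 of the 6, and the median level was 4.00 to 4.47 in mutant samples, against 4.15 to 4.56 in wild-type samples. The part of these transcripts in the differences of the 10 genes was not tested. Fewer cells of a type and less RNA per cell cannot be told apart in such samples, and a common change in total RNA per oocyte is not visible in these values.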

How the data were processed

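RNA was amplified by a whole-transcript method and hybridised, 1 sample to an array. The authors deposited log2 values, 1 per probe set and array. GCOS, Affymetrix Expression Console 1.1 and RMA are named in the submitters' processing notes. RMA is meant to give the arrays a common distribution, and differences are read relative to the rest of the array. The deposited values did not share 1 distribution. Mutant replicate 3 had a median of 4.76 and an SD of 2.04 (log2), against 4.56 and 2.20 in mutant replicate 1. Wild-type medians were 4.60 to 4.67, with SDs of 2.14 to 2.19. The deposited table holds no background measure, and the number of arrays limits the precision.

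All 6 arrays entered a fit with limma 3.58.1 (R 4.3.3, lmFit and eBayes) of genotype alone, two-sided, with Benjamini-Hochberg adjustment over all 35556 rows and a threshold of 0.05. Genes came from the platform annotation (21789 rows name 1 gene), with the row of highest mean where a gene had several. The 10 genes and the lists were chosen with earlier results of these data known. Of 101 other listed names, 95 were measured. Marf1, Birc5 and Cdc20 are named, and up to 5 genes past the threshold of each pathway list by size of change. The marker genes named with values were chosen after these were seen.

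Tested on simulated data of 35556 rows for this comparison, with 50 rows changed per fold size, the fit called 2% at 1.5-fold, 16% at 2-fold, 82% at 4-fold and 98% at 8-fold, with 1 false call. Replicate numbers come from the sample titles. Alternatives were other normalizations, a filter on dim rows, 1 row per gene, other variance models, array weights, a replicate block and leaving out each array.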

Additional observations from a re-analysis of the deposited data

How the results depend on the processing

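Of the 10 genes, Cdca8 was past the threshold as deposited and in 5 of 14 alternatives (log2 fold change -0.56 to -0.37, adjusted p 0.0221 to 0.164), and the other 9 genes passed in 0. Genes past the threshold numbered 0 after cyclic loess normalization, after median centring and with the replicate block, and ranged from 0 to 0 over the fits that left out 1 array. Probe sets past the threshold ranged from 1368 to 2804 over those fits, against 2765 as deposited; fewer arrays lower the count except without mutant replicate 3. Genes with differences near 0 changed sign: Bub1 was at 0.061 after cyclic loess normalization and 0.023 with array weights, and ranged from -0.21 to 0.085 over the fits that left out 1 array. In those fits Mad2l1 ranged from -0.27 to 0.017, Bub3 from -0.07 to 0.12, Birc5 from -0.15 to 0.14 and Cdc20 from -0.27 to 0.022. Birc5 was at 0.067 after quantile normalization, 0.098 after cyclic loess normalization and 0.080 with array weights, and Cdc20 at 0.077 after cyclic loess normalization. The within-array difference of Bub1b minus Bub1 ranged from -0.19 to 0.058 with 1 array left out. The cause of these changes was not tested.

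Deviations of same-numbered samples from their genotype means correlated weakly (r = 0.147, -0.0992 and 0.0267 for numbers 1 to 3). Between samples of different numbers r ran from -0.216 to 0.183. With 3 arrays a genotype these values cannot show whether same-numbered samples shared a batch, and no pairing is stated. With the replicate block 1946 probe sets passed, and Cdca8 had an adjusted p of 0.112 at the same log2 fold change of -0.53. Under that block Cenpf (adjusted p = 0.0510), Kif23 (0.0991) and Kntc1 (0.0678) were not past the threshold. The settings for the further pathway genes were added after the data were seen. All 10 genes differed by less than 1.5-fold, and at 3 arrays a genotype the fit called 2% of simulated rows changed 1.5-fold. Those simulated rows were drawn from the whole array, with 50 changed per fold size. In the deposited data 2765 probe sets passed, so the 2% is not the rate at which the 10 genes would be called.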
